A study of Mus musculus with 8 samples.

Results

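Fam43a, Serpinf1, D430019H16Rik, Igfbp4, Lypd6b, Tmem108, Treml2, Chil5, and Art4 are 9 genes with little place in the literature on follicular T cells whose mRNA differed very widely between follicular CD4 T cells and their progenitors. They were chosen by name for that difference, from 15764 genes tested among 29924 gene names on the array. The choice used the levels in TFH against naïve CD4 T (Tnaive) cells and in TFR against Treg cells. Those values are therefore given as a description, without a test. Their folds depend on the processing. They are smaller with normexp background correction and mostly smaller with the authors' deposited table, as given in the closing section. Tests were restricted to differences that did not choose the genes.

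Follicular helper T cells (TFH) give help to B cells in germinal centers, and follicular regulatory T cells (TFR) are their Foxp3+ counterpart and restrain the reaction. Both leave the T cell zone by gaining the chemokine receptor CXCR5 and losing CCR7, under control of the repressor BCL6. The 9 genes have unrelated products. Fam43a codes for a poorly characterised protein, Serpinf1 for pigment epithelium-derived factor (PEDF), a secreted serpin without protease inhibitor activity, and D430019H16Rik for an uncharacterised product. Igfbp4 codes for a secreted binding protein of insulin-like growth factors, Lypd6b for a Ly6/uPAR-type protein that modulates nicotinic acetylcholine receptors, and Tmem108 for a membrane protein of endosomal traffic studied in neurons. Treml2 codes for a TREM-like receptor of leukocytes, Chil5 for a chitinase-like lectin, and Art4 for a GPI-anchored member of the ADP-ribosyltransferase family that carries the Dombrock blood group.

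The cells came from peripheral lymph nodes (pLN) of B6.Cg-Foxp3<tm1Mal> mice of both sexes aged 8 to 14 weeks, in which Foxp3 expressing cells carry EGFP. All animals had been immunized s.c. with KLH in alum, the controls included, and cells were sorted on d12 or d25 p.i. from pools of 8 to 15 mice. All 4 cell types were sorted as CD4+ and B220- cells. Each of these, Tnaive (EGFP-, PD1-, GL7-), TFH (EGFP-, PD1 high, GL7+), Treg (EGFP+, PD1-, GL7-), and TFR (EGFP+, PD1 high, GL7+ or GL7-), was hybridized once per day. A cell type thus has 2 arrays of separate pools and no replicate within a day. The Tnaive gate used no marker of memory cells, and PD1 and EGFP were part of the gates, so that Pdcd1 and Foxp3 check the labels only. On the arrays, Foxp3 lay between 37266 and 49262 RU (normalized intensity, relative units) in Treg and TFR cells and between 65.5 and 357.8 RU in the others. Cxcr5 and Bcl6 were higher and Ccr7 lower on every follicular array than on every progenitor array. The d12 arrays share 1 slide, while at d25 Tnaive and TFH lie on a second slide and Treg and TFR on another one. At d25, differences between a Foxp3+ and a Foxp3- cell type thus cannot be told apart from the slide. Between 18261 and 19867 of 39429 probes per array were well above background.

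The oligonucleotides behind the values are 60 bases long and are printed 4 times on each array. Their first 30 bases from the 5′ end follow for the probe with the highest mean level of each gene, which gives the main value, and for a second probe of Tmem108 and Serpinf1, since results turn on these. No probe shares 20 bases in a row with a probe of another gene name.
Fam43a: cactgttgtgaagtatttttgactttttgt
Serpinf1: acttaatgtctcagtgctctacagaacccc
Serpinf1, second probe: tcgaacagagtctgtcattcaccgggctct
D430019H16Rik: cagcagaaaggttctttgctgatgtaagat
Igfbp4: gagaagagaaacctcattcttggagtgaga
Lypd6b: tggttggggatagggtgcaaacctttgagt
Tmem108: atattataaatataacctttgtgtaaccct
Tmem108, second probe: cacgggtgccccccacaacttccctggtac
Treml2: agccacataaaaactgctattcttgtaaat
Chil5: aaactaggcatgaacttgtccctataagtt
Art4: gcctgaaccagatagtcagcttcatcattt

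Probe positions follow the mouse build NCBI37 (mm9) of the files, and the files place each probe within a transcript of its gene. The Fam43a probe is at chr16:30602655-30602714 on the plus strand. The Serpinf1 probes are at chr11:75223582-75223641 and chr11:75229163-75229222 on the minus strand. D430019H16Rik is probed at chr12:106731169-106731228 and Igfbp4 at chr11:98913334-98913393, both on the plus strand. Lypd6b is probed at chr2:49804191-49804250 and Treml2 at chr17:48451800-48451859, again on the plus strand. The Tmem108 probes at chr9:103386867-103386926 and chr9:103401732-103401791 start at bases 2031 and 1029 of its transcript. These, the Chil5 probe at chr3:105819901-105819960 and the Art4 probe at chr6:136796974-136797033 lie on the minus strand.

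**Figure D1:**
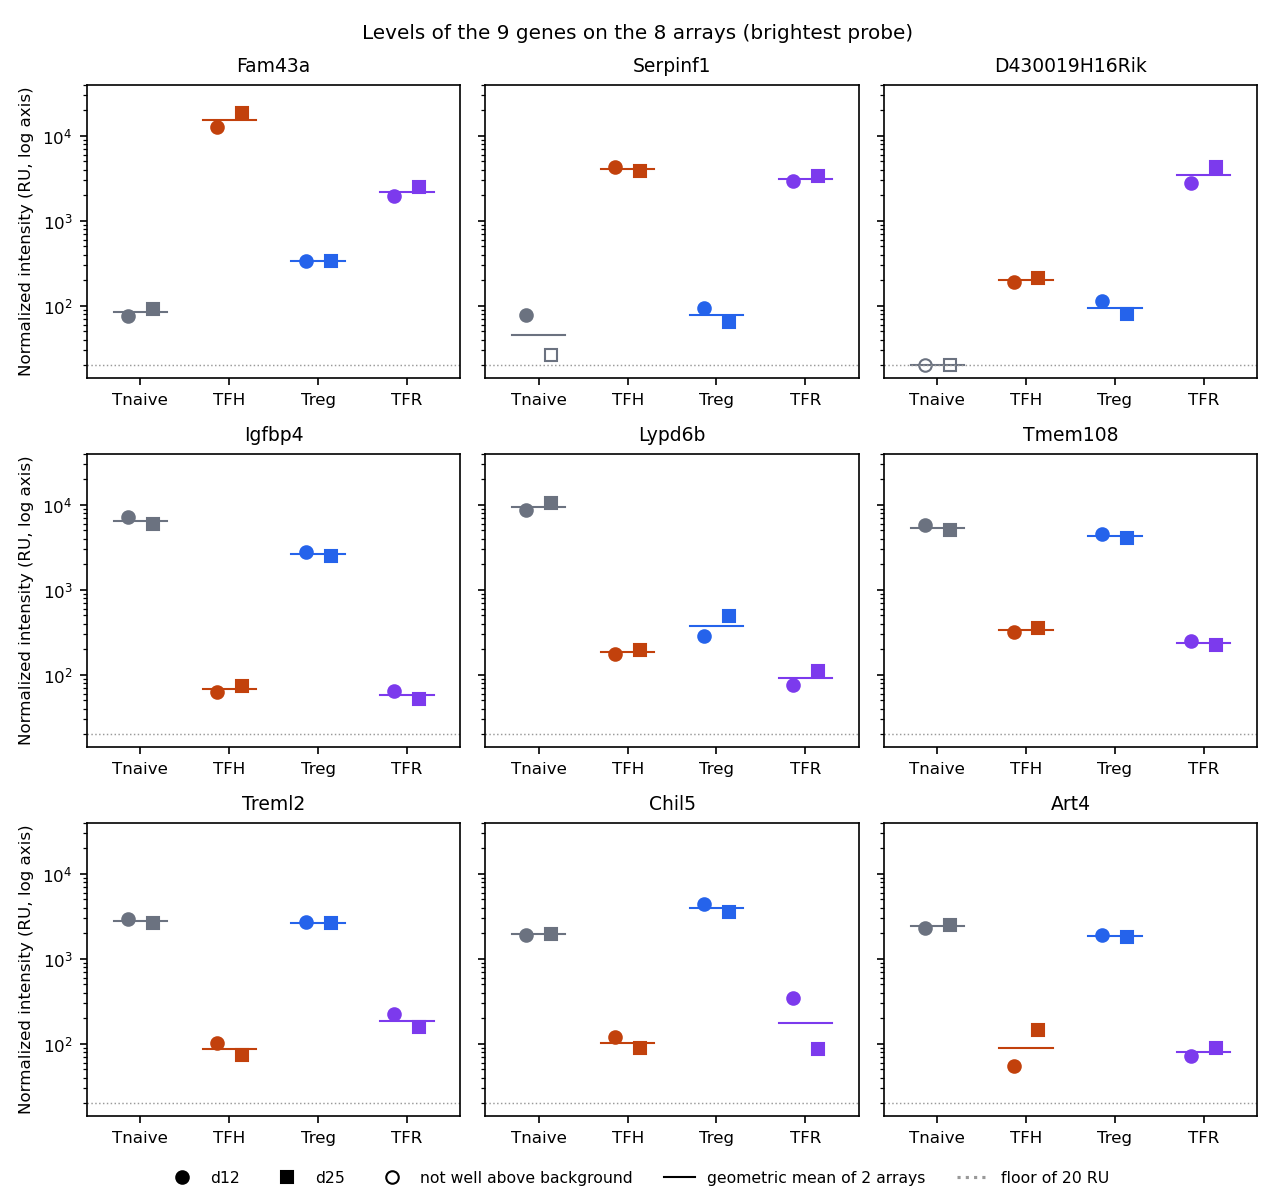
Level of each of the 9 genes (RU, log axis) in the 4 cell types, with circles for d12, squares for d25, open symbols for a probe not well above background, and a line at the geometric mean of both arrays. Fam43a, Serpinf1, and D430019H16Rik sit higher on the TFH and TFR arrays than on the array of their progenitor, and the other 6 genes sit lower.

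Of the 9 genes, Fam43a had the widest rise in TFH cells. Its level was 76.3 and 91.8 RU in Tnaive cells at d12 and d25, 12789 and 18687 RU in TFH cells, 332.9 and 335.1 RU in Treg, and 1951 and 2486 RU in TFR cells. The 4 cell types were thus ordered Tnaive, Treg, TFR, and TFH, and no array of one overlapped with an array of the next. Between TFH and Tnaive cells the difference was 7.53 ± 0.145 on the log2 scale (SE of the fit over 8 arrays), or 185-fold, the 17th from the top of the 15764 genes. Between TFR and Treg cells it was 2.72 ± 0.145, or 6.59-fold, the 395th from the top. Since the 9 genes were chosen for very large differences, their arrays did not overlap in either of these comparisons, which is no further result. Of all genes tested, 46.5% passed an adjusted p of 0.05 in TFH versus Tnaive cells and 39.6% in TFR versus Treg cells (limma, Benjamini-Hochberg). In the former 20.9% were higher and 25.6% lower, and in the latter 18.7% and 20.9%. In bulk RNA of sorted cells, fewer cells that express a gene and less mRNA per cell cannot be told apart.

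Serpinf1 was high in both follicular cell types. It was at 78.9 and 26.5 RU in Tnaive cells at d12 and d25, at 4291 and 3811 RU in TFH cells, at 94.3 and 63.9 RU in Treg, and at 2915 and 3376 RU in TFR cells. Every follicular array was above every progenitor array. Since the probe was well above background on 1 of the 2 Tnaive arrays, the TFH level is given as at least 64.4-fold higher than that of Tnaive cells. This and other such bounds set the mean of the brighter cell type against the dimmer one, whose arrays enter with the gene's own level or, if higher, with the dimmest signal that was flagged as clearly above background there. In TFR cells Serpinf1 was 40.4-fold higher than in Treg cells (log2 5.34 ± 0.43), the 15th from the top. The second Serpinf1 probe gave 25.5 and 20 RU in Tnaive, 150.3 and 141.3 RU in TFH, 20 and 20 RU in Treg, and 109.1 and 167.7 RU in TFR cells, so that both probes separated follicular from progenitor arrays. Serpinf1 is also abundant in connective tissue. The summed level of 9 stromal marker genes was 436 to 540 RU in Tnaive, 429 to 613 RU in TFH, 400 to 472 RU in Treg, and 581 to 745 RU in TFR cells. Of these, Col1a1 was higher in TFR (288 and 195 RU) and TFH (197 and 48 RU) than in Treg (41 and 37 RU) and Tnaive cells (22 and 20 RU). Col1a2 was higher on both TFR arrays than on any other array. Ccl19 went the other way. It was the highest of the list on both Tnaive arrays and lower on every follicular array. Dcn and Col3a1 did not separate follicular from progenitor arrays, and Lum, Pdgfra, Pdgfrb, and Pdpn were at the floor of 20 RU on all 8 arrays. The part of stromal cells in the Serpinf1 signal was not tested.

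D430019H16Rik was highest in TFR cells. Its level was 2812 and 4235 RU there at d12 and d25, 189.0 and 212.1 RU in TFH cells, 113.1 and 79.9 RU in Treg, and at the floor of 20 RU on both Tnaive arrays, where it did not clear the background. The order was thus Tnaive, Treg, TFH, and TFR without overlap. TFR cells were 36.3-fold above Treg cells (log2 5.18 ± 0.26, the 26th from the top), and TFH cells at least 3.43-fold above Tnaive cells.

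Igfbp4 had the deepest fall of all 15764 genes in both follicular comparisons. Its level was 7173 and 5893 RU in Tnaive cells at d12 and d25, 63.4 and 73.8 RU in TFH cells, 2742 and 2516 RU in Treg, and 64.0 and 51.5 RU in TFR cells. The follicular arrays overlapped with each other and lay far below both progenitors, of which Tnaive was the higher. TFH cells were 95.0-fold below Tnaive cells (log2 -6.57 ± 0.156) and TFR cells 45.8-fold below Treg cells (log2 -5.52 ± 0.156).

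Lypd6b separated Tnaive cells from the other 3 cell types. It was at 8637 and 10455 RU in Tnaive cells, 176.1 and 198.3 RU in TFH cells, 289.3 and 489.3 RU in Treg, and 76.3 and 109.6 RU in TFR cells on the d12 and d25 arrays. The order was TFR, TFH, Treg, and Tnaive, with no overlap between neighbours. The fall was 50.8-fold in TFH against Tnaive cells (log2 -5.67 ± 0.165, the 7th from the bottom) and 4.11-fold in TFR against Treg cells (log2 -2.04 ± 0.165, the 210th from the bottom).

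Tmem108 and Treml2 were alike high in Tnaive and Treg cells. Tmem108 was at 5795 and 4992 RU in Tnaive, 321.4 and 354.7 RU in TFH, 4511 and 4081 RU in Treg, and 248.8 and 223.0 RU in TFR cells on the d12 and d25 arrays. Treml2 was at 2900 and 2652 RU in Tnaive, 101.9 and 74.6 RU in TFH, 2693 and 2627 RU in Treg, and 221.5 and 155.5 RU in TFR cells. Within the follicular pair the order was opposite, with TFH above TFR cells for Tmem108 and TFR above TFH cells for Treml2. Tmem108 fell 15.9-fold in TFH (log2 -3.99 ± 0.118) and 18.2-fold in TFR cells (log2 -4.19 ± 0.118), and Treml2 31.8-fold (log2 -4.99 ± 0.151) and 14.3-fold (log2 -3.84 ± 0.151). TREM-like transcript 2 is also carried by B cells, which the B220- gate is meant to remove. The summed level of 10 B cell genes was 5852 to 7625 RU in Tnaive, 7758 to 16904 RU in TFH, 9905 to 10272 RU in Treg, and 7833 to 8838 RU in TFR cells. Its highest value was that of TFH at d25, where Ms4a1 was at 2738 RU as against 246 RU in TFH at d12, while Pax5 was at the floor on all arrays. Treml2 was at its lowest level on that array. The part of B cells in the Treml2 signal was not tested.

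Chil5 and Art4 were low in both follicular cell types, and their follicular arrays differed between the days. Chil5 was at 1918 and 1957 RU in Tnaive, 118.7 and 88.5 RU in TFH, 4435 and 3533 RU in Treg, and 341.5 and 88.0 RU in TFR cells on the d12 and d25 arrays. The 2 TFR arrays enclosed the TFH arrays, and all 4 lay below the progenitors. The fall was 18.9-fold in TFH (log2 -4.24 ± 0.49) and 22.8-fold in TFR cells (log2 -4.51 ± 0.49, with -3.70 at d12 and -5.33 at d25). Art4 was at 2327 and 2465 RU in Tnaive, 55.4 and 145.8 RU in TFH, 1920 and 1822 RU in Treg, and 72.1 and 88.2 RU in TFR cells. Again the follicular arrays overlapped with each other and lay below the progenitors. The fall of Art4 was 26.7-fold in TFH (log2 -4.74 ± 0.38) and 23.5-fold in TFR cells (log2 -4.55 ± 0.38). Chil5 and Art4 were the 8th and 7th from the bottom in TFR versus Treg cells.

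Since Art4 is known from erythroid cells and chitinase-like proteins from myeloid cells, their marker genes were read alongside. Of 7 erythroid and platelet genes, Hba-a1 was at 13474 and 14755 RU in Tnaive, 9223 and 5291 RU in TFH, 13608 and 7510 RU in Treg, and 9750 and 6666 RU in TFR cells, and Klf1 was at the floor on all 8 arrays. The list summed to 17690 to 19301 RU in Tnaive, 6984 to 11920 RU in TFH, 9518 to 18163 RU in Treg, and 8387 to 11947 RU in TFR cells. The part of these transcripts in the Art4 signal was not tested. The 11 myeloid and dendritic genes on the array summed to 21741 to 30774 RU in Tnaive, 19005 to 27492 RU in TFH, 18782 to 22704 RU in Treg, and 17823 to 23813 RU in TFR cells. Itgam made up most of each sum, with 28504 and 19647 RU in Tnaive and 13599 to 21184 RU in the follicular cells. Single genes differed from it, with Cd68 at 551 and 564 RU in Tnaive, 5098 and 3768 RU in TFH, 368 and 394 RU in Treg, and 2868 and 2333 RU in TFR cells. Fcgr3 was at 308 and 244 RU in Tnaive, 106 and 119 RU in TFH, 44 and 20 RU in Treg, and 73 and 27 RU in TFR cells, and Clec9a was at the floor throughout. The part of myeloid cells in the Chil5 signal was not tested.

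The mean of Treg and TFR minus the mean of Tnaive and TFH cells was tested as an average difference with Foxp3. It is orthogonal to both differences that chose the genes, but can average unlike differences in progenitor and follicular cells. Fam43a was at 2.0 in Treg minus Tnaive and -2.81 in TFR minus TFH cells, and Treml2 at -0.06 and 1.09. Of the 9 genes, 6 differed on this average at an adjusted p below 0.05, against 24.0% of all genes (12.4% higher and 11.6% lower). D430019H16Rik was higher in Foxp3+ cells by 3.18 ± 0.185 (log2, limma adjusted p = 0.000929) and Lypd6b lower by a log2 difference of -2.85 ± 0.116 (adjusted p = 0.000446). These passed in each of the 8 fits that left out an array, and with the slide in place of the day. For D430019H16Rik both Tnaive arrays were at the floor, and its difference lay between 1.95 and 3.37 over the alternatives. The differences of the other 4 genes called were smaller. Igfbp4 differed by -0.78 ± 0.110 (adjusted p = 0.00984), Tmem108 by -0.42 ± 0.083 (adjusted p = 0.0247), Fam43a by -0.41 ± 0.103 (adjusted p = 0.0477), and Treml2 by 0.52 ± 0.107 (adjusted p = 0.0286). With the slide as a block this contrast rests on the d12 arrays, since Foxp3+ and Foxp3- cells lay on different slides at d25. All 4 lost the call in that fit, where Fam43a was at -0.29, Igfbp4 at -0.69, Tmem108 at -0.37, and Treml2 at 0.51. Without the day term Fam43a (adjusted p = 0.147) and Treml2 (adjusted p = 0.0822) lost the call as well. Treml2 lost it with normexp (0.185, limma adjusted p = 0.0776) and with a floor of 100 RU (0.409, adjusted p = 0.0586). With the mean over probes Tmem108 lost it (-0.159, adjusted p = 0.139). Fam43a and Treml2 also lost it without Tnaive or TFR of either day, TFH of d25 or Treg of d25 (-0.43 to -0.31 and 0.43 to 0.59). Tmem108 lost it without Tnaive, Treg, or TFR of either day (-0.46 to -0.38), and Igfbp4 without Treg or TFR of d25 (-0.78 and -0.72). For Serpinf1 (0.20 ± 0.306), Chil5 (0.89 ± 0.349), and Art4 (-0.26 ± 0.266) the adjusted p was 0.661, 0.128, and 0.497. Chil5 passed with normexp (0.724, limma adjusted p = 0.0311). Art4 passed without TFH of d12 (-0.59) and Chil5 without TFR of d25 (1.32).

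**Figure D2:**
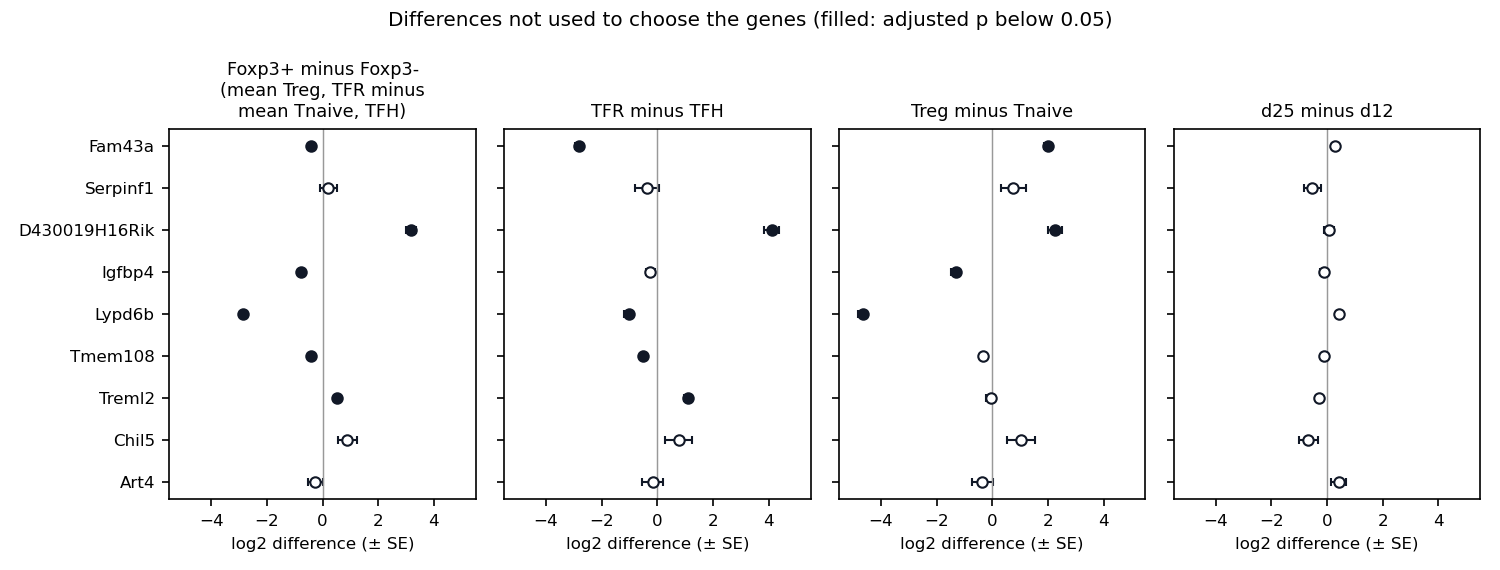
Log2 difference with its standard error for each gene in the 4 contrasts that did not choose the genes, fitted over 8 arrays, with filled symbols for an adjusted p below 0.05. D430019H16Rik (3.18) and Lypd6b (-2.85) lie farthest from 0 in the Foxp3 contrast, and no gene passes between the days.

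TFR were next compared with TFH cells, and Treg with Tnaive cells. These contrasts did not choose the genes but share arrays with those that did. Between the follicular cell types 5 of the 9 genes passed, against 22.1% of all genes (11.6% higher and 10.5% lower). Fam43a was 7.02-fold lower in TFR than in TFH cells (log2 -2.81 ± 0.145, limma adjusted p = 0.000908), and D430019H16Rik was 17.2-fold higher (log2 4.11 ± 0.262, adjusted p = 0.00146). Both were called in every fit that left out an array. Lypd6b was 2.04-fold lower (adjusted p = 0.0154), Treml2 2.13-fold higher (adjusted p = 0.0106), and Tmem108 1.43-fold lower (adjusted p = 0.0386) in TFR cells. The call was lost for Lypd6b without TFH of d12 or TFR of either day (log2 -1.09 to -0.86) and for Treml2 without TFR of d12 (0.94) or TFH of d25 (0.98). With the slide as a block Treml2 (1.08, adjusted p = 0.0633) and Tmem108 (-0.46, adjusted p = 0.164) lost it, and without the day term Lypd6b (adjusted p = 0.0753) and Tmem108 (adjusted p = 0.0584). The call of Tmem108 was also lost with normexp (-0.318, limma adjusted p = 0.0824) and with the mean over probes (-0.176, adjusted p = 0.232). It was lost as well without any one array other than TFH of d12 (-0.56 to -0.36). Igfbp4 (log2 -0.25 ± 0.156, adjusted p = 0.301), Serpinf1 (-0.37 ± 0.433, adjusted p = 0.587), Chil5 (0.76 ± 0.493, adjusted p = 0.327), and Art4 (-0.17 ± 0.377, adjusted p = 0.779) did not pass. Without TFR of d25 Chil5 passed at 1.62, and without TFH of d12 Art4 passed at -0.82.

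Between the progenitors 4 of the 9 genes passed, against 9.88% of all genes (5.89% higher and 3.98% lower). Lypd6b was 25.3-fold lower in Treg than in Tnaive cells (log2 -4.66 ± 0.165, limma adjusted p = 0.000792), and Fam43a was 3.99-fold higher (log2 2.0 ± 0.145, adjusted p = 0.00315). Both passed in every fit that left out an array. Igfbp4 was 2.47-fold lower in Treg cells (adjusted p = 0.0119), a call that was lost without any one of the Tnaive and Treg arrays (log2 -1.41 to -1.20) and with the slide as a block (-1.22, adjusted p = 0.0778). D430019H16Rik was at least 1.63-fold higher (adjusted p = 0.0112), and its call was lost without Tnaive of either day or Treg of d12 (1.87 to 2.29) and with the slide as a block (2.27, adjusted p = 0.0743). With a floor of 100 RU this difference was 0.09 (adjusted p = 0.869) and with normexp 0.54 (adjusted p = 0.117), so that its size rests on levels near the floor. Serpinf1, Tmem108, Treml2, Chil5, and Art4 did not pass, with differences of 0.76, -0.33, -0.06, 1.03, and -0.36 and adjusted p values of 0.334, 0.161, 0.843, 0.263, and 0.606.

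From d12 to d25 no gene of the 9 passed, and 3 had an unadjusted p below 0.05. Of all genes 0.0698%, or 11, passed in this comparison with limma (0.0190% higher and 0.0507% lower), and 4545 had an unadjusted p below 0.05. The day cannot be told apart from the slide. Averaged over cell types, the changes were between -0.67 ± 0.349 (Chil5, adjusted p = 0.261) and 0.43 ± 0.116 (Lypd6b, adjusted p = 0.109) on the log2 scale. Lypd6b was higher at d25 in all 4 cell types, by 0.28 in Tnaive, 0.17 in TFH, 0.76 in Treg, and 0.52 in TFR cells. Single cell types moved further, which cannot be tested with 1 array each. Chil5 fell by 1.96 in TFR cells, and Serpinf1 fell by 1.58 in Tnaive cells where it was not well above background at d25. Art4 rose by 1.4 in TFH cells, whose d25 array had the highest summed B cell markers. A link between the Art4 rise and these markers was not tested.

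The 9 genes were grouped by the likeness of their patterns, measured as the root mean square (RMS) difference of log2 values centered on each gene over the 8 arrays. The arrays and their normalization are shared between genes, so these values describe and are not tested. Among the falling genes, Tmem108 and Art4 were closest (RMS 0.46), followed by Treml2 and Chil5 (0.55) and by Tmem108 and Treml2 (0.63). Lypd6b stood apart from Chil5 by 2.24. Of the rising genes, Fam43a and Serpinf1 were at 1.16 and Fam43a and D430019H16Rik at 2.49.

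Among all tested genes, those most like Fam43a were Coro2b, an actin-binding coronin (RMS 0.32), the homing receptor Cxcr5 (0.33), and the small GTPase Rasl11a (0.45). Serpinf1 was nearest to Sccpdh (0.41), the antioxidant enzyme Srxn1 (0.50), and Pdcd1 (0.59), which codes for PD1. D430019H16Rik had no gene within an RMS of 0.5, and Chadl (0.57), Rgs9 (0.61), and the chemokine Cxcl10 (0.70) came closest. For Igfbp4 these were the adhesion molecule Amigo2 (0.56) and the transcripts AK041010 and Gm34006 (both 0.60). For Lypd6b they were Gm590 (0.45), Adamts14 (0.55), and Pdlim4 (0.57). Treml2 was most like S1pr1, the sphingosine 1-phosphate receptor for lymph node egress (0.32), and Gm13546 (0.34), both of which were also among the nearest of Chil5 (0.61 and 0.60). G0s2, an inhibitor of lipolysis, was near Tmem108 (0.28) and nearest to Art4 (0.39). Gm11346 came next for Tmem108 (0.37), Treml2 (0.37), and Art4 (0.46).

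Different probes of the same gene did not always follow each other. The second Treml2 probe had the pattern of the first, with 546.6 and 512.0 RU in Tnaive, 27.0 and 20 RU in TFH, 450.7 and 438.6 RU in Treg, and 35.8 and 49.0 RU in TFR cells. The second Art4 probe lay between 108.5 and 169.2 RU on the 4 progenitor arrays and at the floor of 20 RU on the 4 follicular arrays. Tmem108 differed. Its second probe, at bases 1029 onward of the transcript, was well above background on all 8 arrays and gave 215.7 and 182.9 RU in Tnaive, 160.9 and 147.5 RU in TFH, 178.8 and 191.9 RU in Treg, and 171.2 and 136.8 RU in TFR cells. Where the main probe fell 15.9-fold and 18.2-fold, the second one lay 1.29-fold and 1.21-fold lower. The remaining Tmem108 probe and the second Chil5 probe were not above background on any array. The large fall of Tmem108 thus rests on the probe at bases 2031 onward, and that of Chil5 on 1 probe. Fam43a, D430019H16Rik, Igfbp4, and Lypd6b had only 1 probe each, so their differences could not be compared between probes.

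**Figure D3:**
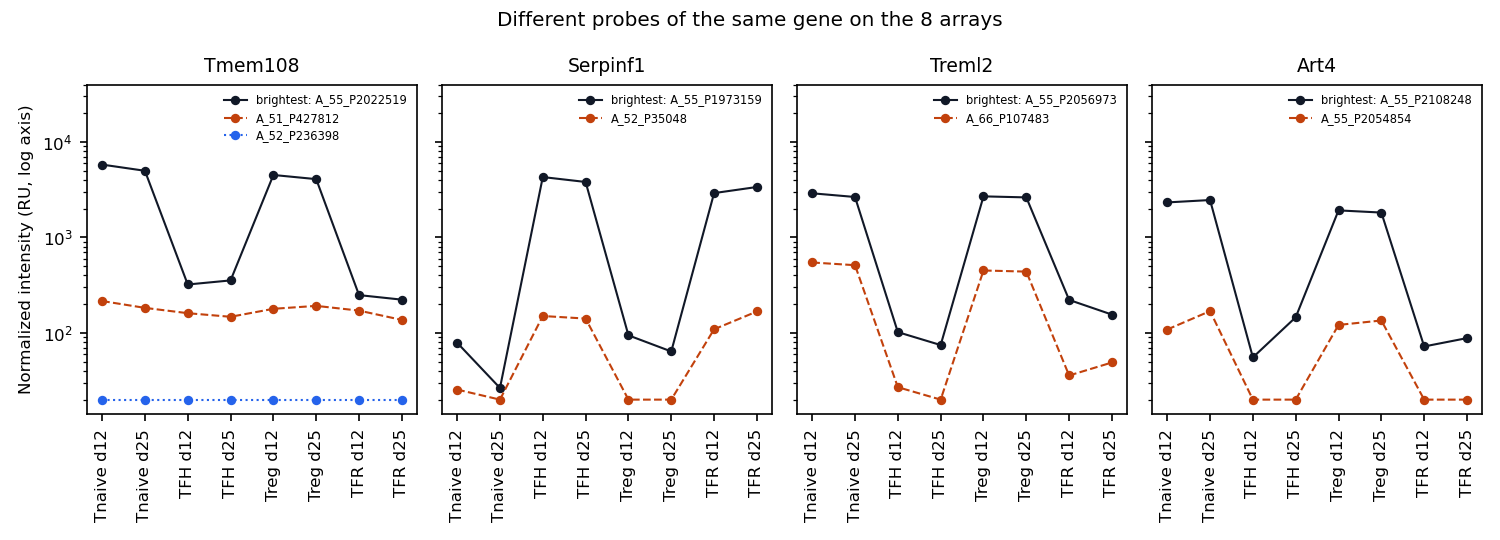
Level (RU, log axis) of each probe of Tmem108, Serpinf1, Treml2, and Art4 on the 8 arrays, with a solid line for the brightest probe and broken lines for the others. The probes of Serpinf1, Treml2, and Art4 move together, while the second Tmem108 probe stays between 136.8 and 215.7 RU.

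The 4 spots of a probe show the spread within an array, taken here after outlying spots were excluded. For the main probes of the 9 genes the SD of the retained spots was 0.075 on the log2 scale as a median over 72 values. It was 0.0371 at levels of 1000 RU or more and 0.144 below 200 RU, where the highest was 0.493. Within an array, the low sides of the follicular differences are thus the less precise ones. The spots do not contain the spread between hybridizations or between pools of mice.

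It was then asked whether relatives of the 9 genes by family or pathway changed with them. Of 67 tested genes in 7 lists, 46 (68.7%) passed in TFH versus Tnaive and 34 (50.7%) in TFR versus Treg cells, beside 46.5% and 39.6% of all genes. The lists were made of relatives, but with earlier results of these data known, so the shares only describe them.

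Of the insulin-like growth factor (IGF) axis, 9 of 21 genes were tested, with a median log2 difference of 0.68 in TFH and 0.24 in TFR cells, against -0.072 and -0.077 over all genes. In TFH cells Stc2, Igf2bp3, Igf1r, Insr, and Igf2bp2 were higher and Irs2 and Igf2r lower. In TFR cells Stc2, Igfbp7, Igf2bp3, and Igf2bp2 were higher and Irs2, Igf2r, and Insr lower, with Igf2bp3 below background in both Treg and TFR cells. Stc2, which codes for stanniocalcin, an inhibitor of the protease that cleaves IGFBP4, was at the floor or within 1 RU of it on all 4 progenitor arrays, at 2122 and 3091 RU in TFH, and at 348 and 446 RU in TFR cells. This is at least 43.9-fold (limma adjusted p = 8.33e-05) and at least 7.43-fold higher (adjusted p = 0.000429), respectively. The receptor Igf1r was higher in TFH than in Tnaive cells by 2.43 (adjusted p = 0.00182), while the difference between TFR and Treg cells was -0.11 (adjusted p = 0.742). Whether both differences differ was not tested.

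Of serpins and receptors of PEDF, 15 of 27 genes were tested, 6 rose and 1 fell in TFH cells and 7 rose in TFR cells, with medians of 0.37 and 1.00. Serpinc1, the antithrombin gene, was at 4177 and 5496 RU in TFR and 365 and 471 RU in Treg cells (log2 3.53, limma adjusted p = 0.00167), and at least 4.68-fold higher in TFH than in Tnaive cells. Serpina3g, an inhibitor of cathepsins, rose by 2.57 in TFH (adjusted p = 0.00165) and 2.03 in TFR cells (adjusted p = 0.00476). The fall was that of Serpini1, which was at least 6.25-fold lower in TFH than in Tnaive cells (adjusted p = 0.0102). Plxdc2, a receptor of PEDF, rose by 2.55 in TFR cells (adjusted p = 0.00395). Plxdc1, another one, was at least 2.95-fold higher in TFH (adjusted p = 0.0166) and at least 4.21-fold higher in TFR cells (adjusted p = 0.0272).

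Among Ly6/uPAR proteins and nicotinic receptor subunits, the group of Lypd6b, more genes fell than rose. Of 33 listed, 13 were tested, 8 fell in each comparison, and 1 rose in TFH cells, with medians of -0.92 and -1.33. The rise was that of Ly6e (0.45, limma adjusted p = 0.0155). Plaur, the urokinase receptor gene, was at least 8.55-fold lower in TFH (adjusted p = 0.00985) and at least 2.66-fold lower in TFR cells (adjusted p = 0.0290). Lynx1, a modulator of nicotinic receptors, fell by 2.56 (adjusted p = 0.000787) and by 1.33 (adjusted p = 0.00718). Chrnb2, a receptor subunit, was at least 3.30-fold (adjusted p = 0.00896) and at least 1.59-fold lower (adjusted p = 0.0276). The closest relative, Lypd6, cleared the background on none of the 8 arrays.

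Of the TREM family and its partners, 6 of 13 genes were tested. In TFH cells Cd300lf, Pigr, Cd300a, and Trem1 fell by 1.87, 1.5, 1.33, and 1.29, with limma adjusted p values of 0.00812, 0.0201, 0.00765, and 0.0307, and the adaptor gene Hcst was higher by 0.39 (adjusted p = 0.0303). In TFR cells Trem1 fell by 1.31 (adjusted p = 0.0344) and Cd300a fell by 0.96 (adjusted p = 0.0243). The medians were -1.31 and -0.72.

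Of 15 listed chitinase-like relatives of Chil5, 5 were tested, with medians of 1.13 and 0.15. Chia1, Chil1, and Ctbs were higher in TFH than in Tnaive cells, by at least 2.40-fold, 1.59-fold, and 1.86-fold, with limma adjusted p values of 0.0247, 0.0200, and 0.0288. Ovgp1, which lies within 200 kb of Chil5, was at least 2.16-fold lower in TFH (adjusted p = 0.0338) and at least 1.38-fold lower in TFR cells (adjusted p = 0.0344), and was the one gene of the list that passed in the latter.

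Of ADP-ribosyltransferases and related NAD-consuming or NAD-sensing proteins, 12 of 14 genes were tested, 6 rose and 2 fell in TFH and 3 rose and 2 fell in TFR cells, with medians of 0.65 and -0.05. Art2a-ps was at the floor on the 4 progenitor arrays and at least 34.9-fold higher in TFH (limma adjusted p = 0.000912) and 3.19-fold higher in TFR cells (adjusted p = 0.0114), a direction opposite to that of Art4. P2rx7, the ATP receptor that ART2 can gate, rose by 4.83 in TFH cells (adjusted p = 8.89e-05), and its difference in TFR cells was 0.21 (adjusted p = 0.240). Cd38, an NAD glycohydrolase gene, rose by 3.27 (adjusted p = 0.000648) and by 2.0 (adjusted p = 0.00391). Art3 was higher in TFR cells by 2.95 (adjusted p = 0.0157). The genes that fell in TFH cells were Art5 and Adprhl1, and those in TFR cells were Art5 and Art2b, the latter of which rose in TFH cells by 1.64 (adjusted p = 0.0113). Art2 genes are near-identical copies whose probes may share signal.

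Of neurotrophins, their receptors, and endocytic partners related to Tmem108, 7 of 12 genes were tested, and their medians were -0.16 and -0.13. Sh3gl3, an endophilin gene, was at least 39.5-fold higher in TFH (limma adjusted p = 0.00058) and rose by 1.58 in TFR cells (adjusted p = 0.0248). Ntrk3 and Sh3glb1 were the other genes that rose in TFH cells, by 1.85 and 0.38, and Ntrk3 rose in TFR cells by 1.15. Ntrk2, Sh3gl1, and Sort1 fell in TFH cells by 1.47, 0.84, and 0.55, and Sh3gl1 and Sort1 fell in TFR cells by 0.71 and 0.42. Fam43b, the relative of Fam43a, was not tested because its probe did not clear the background on both arrays of 1 cell type.

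**Figure D4:**
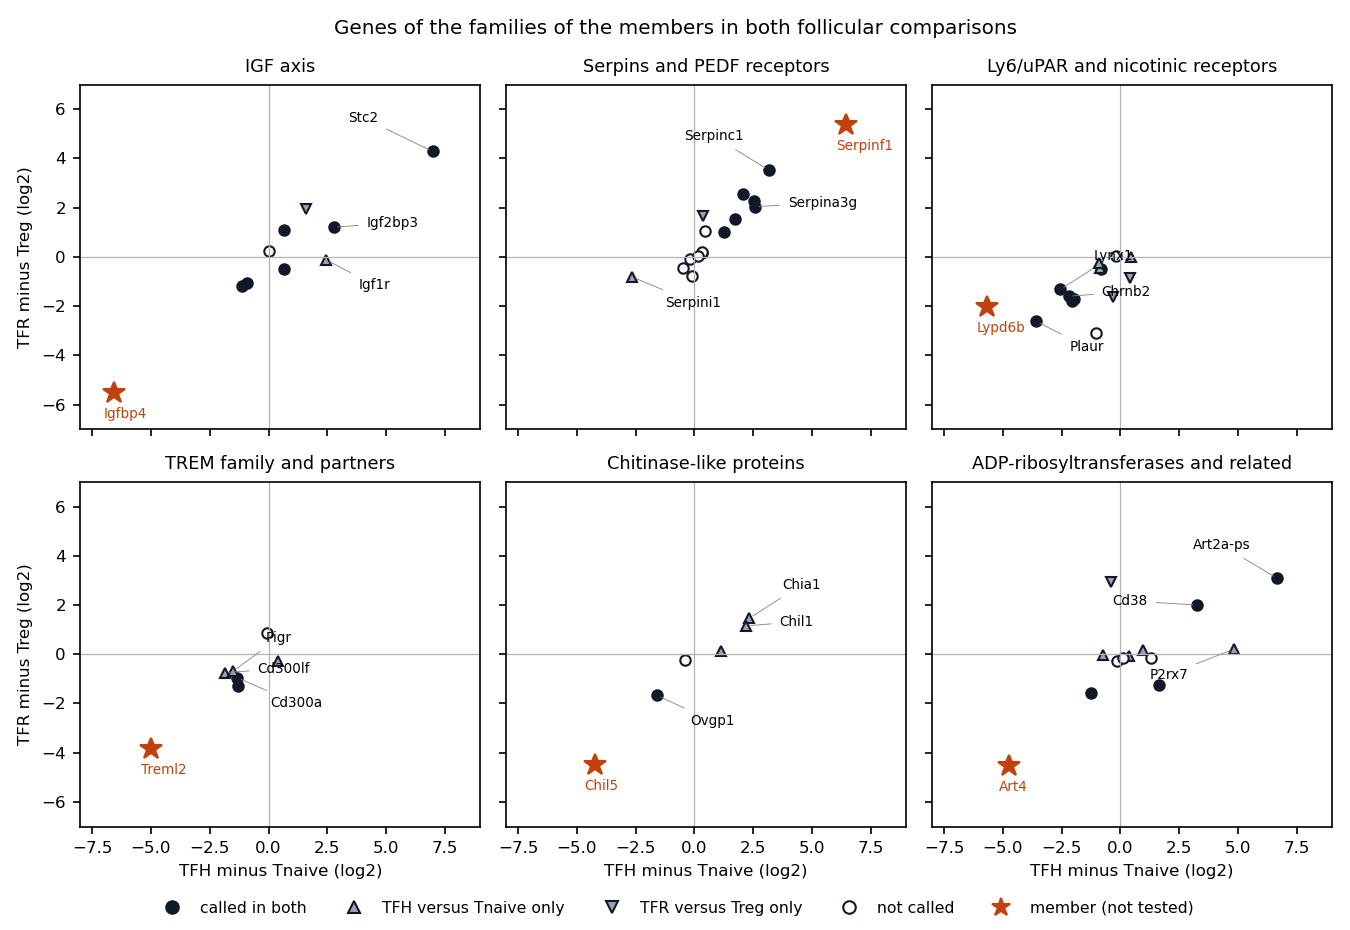
Log2 difference of TFH minus Tnaive (x axis) and TFR minus Treg (y axis) for the tested genes of 6 lists, with the one of the 9 genes that each list belongs to as a star, and the others with filled circles if called in both comparisons, triangles if in 1, and open circles if in none. Igfbp4 lies opposite to Stc2, Art4 opposite to Art2a-ps, and Lypd6b on the side of Plaur, Lynx1, and Chrnb2.

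The chromosomal neighbours were read in the same way. Of 18 nearest genes with a probe on either side of the 9 genes, 12 were tested. In TFH versus Tnaive cells 3 were higher and 3 lower (50% called, beside 46.5% of all genes), and in TFR versus Treg cells 4 were higher and 5 lower (75%, beside 39.6%). B430306N03Rik, 13.0 kb from Treml2 on the same strand, was at 1740 and 1220 RU in Tnaive, 79 and 59 RU in TFH, 866 and 834 RU in Treg, and 68 and 42 RU in TFR cells. It was lower by 4.41 ± 0.17 in TFH (limma adjusted p = 0.000181) and at least 15.8-fold lower in TFR cells (adjusted p = 0.00048), and was of all genes the one most like Tmem108 (RMS 0.27).

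Pifo, 2.55 kb from Chil5 on the same strand, was at least 3.63-fold lower in TFH cells (limma adjusted p = 0.00202), and in TFR cells its log2 difference was -1.04 (adjusted p = 0.0154). BC049715, 7.96 kb from Art4 on the opposite strand, was at least 3.23-fold lower in TFH cells (adjusted p = 0.00676), and in TFR cells its log2 difference was -1.33 (adjusted p = 0.0171). Neither gene cleared the background in Treg or TFR cells. Other neighbours moved against the gene beside them. Top2a, a proliferation gene 57.8 kb from Igfbp4, rose by 1.98 (adjusted p = 0.00521) and 2.07 (adjusted p = 0.00619). Kif5c, 174 kb from Lypd6b, was at least 4.38-fold higher in TFH (adjusted p = 0.00086) and higher by 2.39 in TFR cells (adjusted p = 0.00229). Of the genes next to the rising Fam43a and Serpinf1, the transcript ENSMUST00000119634 (17.8 kb from Serpinf1) was higher by 0.40 (adjusted p = 0.0316) and 0.36 (adjusted p = 0.0475), and Xxylt1, 353 kb from Fam43a, was lower in TFR cells (-0.90, adjusted p = 0.0284). Bfsp2 (59.6 kb from Tmem108) was lower in TFR cells (-2.38, adjusted p = 0.0278) and ENSMUST00000196905 (74.3 kb from Chil5) higher (0.72, adjusted p = 0.0167). Within 200 kb to either side of the 9 genes 47 genes were tested. In TFH versus Tnaive cells 14 were higher and 15 lower, beside 20.9% and 25.6% of all genes. In TFR versus Treg cells 14 were higher and 16 lower, beside 18.7% and 20.9% of all genes. These counts only describe the windows. Ccr7 is one of the genes within 200 kb of Igfbp4 that were lower in both comparisons.

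To show the regulatory sequence of the most similar genes, the 250 bases before the transcription start are given for Fam43a and Serpinf1, the closest pair of the rising genes, and for Tmem108 and Art4, the closest pair of the falling ones, from RefSeq (GRCm38.p6, 5′ to 3′ on the gene's strand). Windows were found for 7 of the 9 genes, with 2 starts for Tmem108. The Fam43a window is chr16:30599473-30599722 (plus strand), that of Serpinf1 chr11:75422624-75422873 (minus strand), those of Tmem108 chr9:103692808-103693057 and chr9:103761838-103762087 (minus strand), and that of Art4 chr6:136857601-136857850 (minus strand). Capitals mark CACCC, a core bound by KLF factors, or its complement, and CAGCTG, an E box.
Fam43a: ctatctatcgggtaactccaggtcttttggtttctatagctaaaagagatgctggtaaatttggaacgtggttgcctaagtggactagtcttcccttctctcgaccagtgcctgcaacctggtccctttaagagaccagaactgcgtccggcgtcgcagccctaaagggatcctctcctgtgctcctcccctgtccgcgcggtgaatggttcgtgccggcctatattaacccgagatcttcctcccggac
Serpinf1: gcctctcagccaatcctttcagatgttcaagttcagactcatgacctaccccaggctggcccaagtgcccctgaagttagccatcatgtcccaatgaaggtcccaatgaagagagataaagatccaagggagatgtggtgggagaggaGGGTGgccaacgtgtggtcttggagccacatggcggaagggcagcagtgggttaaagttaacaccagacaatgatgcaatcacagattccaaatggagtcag
Tmem108, first window: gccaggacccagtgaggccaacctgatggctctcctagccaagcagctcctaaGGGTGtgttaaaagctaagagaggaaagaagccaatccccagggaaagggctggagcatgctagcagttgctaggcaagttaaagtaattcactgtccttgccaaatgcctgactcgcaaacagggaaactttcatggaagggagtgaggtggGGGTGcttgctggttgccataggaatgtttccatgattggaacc
Tmem108, second window: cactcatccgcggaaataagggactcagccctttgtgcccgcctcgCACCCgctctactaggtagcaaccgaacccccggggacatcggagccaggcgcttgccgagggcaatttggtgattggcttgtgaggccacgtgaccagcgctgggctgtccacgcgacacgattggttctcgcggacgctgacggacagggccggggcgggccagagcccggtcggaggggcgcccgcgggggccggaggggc
Art4: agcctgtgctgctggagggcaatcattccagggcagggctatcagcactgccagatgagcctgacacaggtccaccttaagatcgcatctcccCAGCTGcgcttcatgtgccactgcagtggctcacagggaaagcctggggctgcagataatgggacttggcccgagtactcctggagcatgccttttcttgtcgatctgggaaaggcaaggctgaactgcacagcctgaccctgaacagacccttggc

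Of 6 motifs searched on both strands, CACCC was found in 6 of the 8 windows and in 52.0% of 32851 mouse windows of the same length. CAGCTG was found in those of Art4 and D430019H16Rik (13.0% of all windows). TTCNNNGAA, a STAT or BCL6 type motif, was found in 1 of the Tmem108 windows (7.0%), and CTTTGAA, a TCF/LEF motif, in that of Chil5 (4.5%). The FOXO motif GTAAACA (3.2%) and the AP-1 motif TGANTCA (6.7%) were in none of the 8. The Fam43a window held none of the 6 motifs. The windows differed in base composition, with a GC content of 36.4% for Chil5 and 69.2% for Igfbp4 around a median of 52.4% over all windows. A match is a stretch of letters, and no binding was measured here.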

How the data were processed

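RNA of the 4 sorted CD4 T cell types of pLN was hybridized to 8 one-color Agilent arrays. The authors extracted spot intensities with Agilent Feature Extraction 10.7.3.1, which gives a background-corrected signal and flags, and deposited these intensities together with a table of normalized intensities. Here the spots were processed again by the steps of the authors' methods. Spots that were flagged, lay outside 1.42 times the interquartile range of their 4 replicates, or whose pixels varied by a coefficient of more than 0.5 were excluded, which left 86.4% to 89.2% of the spots. Spots were averaged by the geometric mean, arrays were quantile normalized, the 75th percentile was set to 1500 RU, and a floor of 20 RU was applied. Per array, log2 values correlated with the authors' table with a Pearson r of 0.9994 across probes. The number of arrays, not read depth, limits the precision. Nothing states more than separate pools as replicates, so p values measure the spread between these arrays.

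A gene was represented by the probe with the highest mean log2 value. Gene names are those of the files. Genes were tested if that probe was well above background (flag set on more than 50% of the retained spots) on each of the 2 arrays of some cell type. Differences were fitted with limma 3.58.1 in R 4.3.3 (lmFit, eBayes) with additive terms for cell type and for day over all 15764 genes, which leaves 3 residual degrees of freedom and a prior of 1.89, and a gene was called if its p, adjusted after Benjamini-Hochberg, was below 0.05. The day term pairs the arrays of a day, which share slide 1 at d12. A one-way test with Tukey adjustment, as named in the methods, was run as an alternative. The fit was tested on simulated data with known changes.

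The 9 genes, the family and marker lists, and the tests were chosen with earlier results of these data known. Named besides were the 3 genes most alike in pattern, the nearest genes on either side, the called genes of a list with the largest differences or in a count of 5 or fewer, and Foxp3, Pdcd1, Cxcr5, Bcl6, and Ccr7. Alternatives were another scaling, normexp background correction, the authors' deposited table, no spot exclusion, a floor of 100 RU, other gene filters, the mean over probes, no day term, the slide as a block, an intensity trend, and leaving out each array. Tissue other than pLN was not analysed here. Some single marker genes are not reported here.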

Additional observations from a re-analysis of the deposited data

How the results depend on the processing

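The signs of all 9 genes in TFH versus Tnaive and TFR versus Treg cells held under every alternative run, but the sizes did not. With normexp the log2 differences of Fam43a, Serpinf1, D430019H16Rik, Igfbp4, Lypd6b, Tmem108, Treml2, Chil5, and Art4 in TFH versus Tnaive cells were 6.04, 4.27, 1.01, -4.81, -4.83, -3.48, -3.56, -2.97, and -3.29, and in TFR versus Treg cells 2.30, 3.76, 3.83, -3.6, -1.10, -3.49, -2.99, -3.56, and -3.05. With a floor of 100 RU, D430019H16Rik was at 1.0 and Serpinf1 at 5.34 in TFH versus Tnaive and Igfbp4 at -4.72 in TFR versus Treg cells. The authors' deposited table gave smaller differences for all 9 genes in both comparisons, except D430019H16Rik in TFH versus Tnaive cells (3.39). In TFH versus Tnaive cells Fam43a was at 7.10, Igfbp4 at -6.18, Lypd6b at -5.375, and Treml2 at -4.69 with that table. In TFR versus Treg cells Igfbp4 was at -5.17 with it. The arrays of a day share a replicate number. Without the replicate block (day term left out), 2213 genes and 3 of the 9 passed in TFR versus TFH and 1000 genes in Treg versus Tnaive cells, as against 3486, 5, and 1557 with it. With the slide as a block these were 1349 genes and 3 of the 9, and 523 genes and 2 of the 9, and in the Foxp3 contrast 1071 genes and 2 of the 9 instead of 3786 and 6. With a one-way test, Tukey adjustment per gene, and then Benjamini-Hochberg adjustment, 423 genes and 2 of the 9 passed in TFR versus TFH and 79 genes and 0 of the 9 in Treg versus Tnaive cells, while without the latter adjustment 4 of the 9 passed in each. With genes well above background on all 8 arrays alone, 13299 genes were tested instead of 15764. Then 30 list genes instead of 46 and 3 neighbours instead of 6 passed in TFH versus Tnaive and 22 list genes instead of 34 in TFR versus Treg cells. List genes and neighbours not well above background on some array were left out of this test. These counts thus have a smaller base and do not measure a loss of calls. Without a filter on dim probes, 3870 genes and 18 list genes passed in TFR versus Treg, 1649 genes in TFR versus TFH, 702 in Treg versus Tnaive, and 2100 in the Foxp3 contrast. List genes fell to 29 in TFH versus Tnaive and neighbours to 3 in TFR versus Treg cells. Of the 9 genes, 2 then passed in each of TFR versus TFH, Treg versus Tnaive, and the Foxp3 contrast. The calls lost were those of Lypd6b, Tmem108, and Treml2, of D430019H16Rik and Igfbp4, and of Fam43a, Igfbp4, Tmem108, and Treml2. Between d25 and d12, the 11 genes became 28 with scaling alone, 848 with normexp, 6 without exclusion of spots, 5 with a floor of 100 RU, 797 with genes well above background on all arrays, 0 with the mean over probes, and 1095 with an intensity trend. None of the 9 was among them in any of these. The cause was not tested.

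Leaving out 1 array at a time, the genes called ranged from 4309 to 6478 in TFH versus Tnaive, 2494 to 6731 in TFR versus Treg, 942 to 2915 in TFR versus TFH, 416 to 1865 in Treg versus Tnaive, 1780 to 4171 in the Foxp3 contrast, and were 0 between the days. Of the 9 genes, 2 to 5, 2 to 4, and 2 to 7 passed in TFR versus TFH, Treg versus Tnaive, and the Foxp3 contrast. Of the list genes 29 to 44 and 15 to 39 and of the neighbours 5 to 7 and 2 to 10 passed in TFH versus Tnaive and TFR versus Treg cells.

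Small differences that had not passed changed their sign. Art4 in TFR versus TFH cells was at 0.144 with the slide as a block and 0.477 without TFH of d25, and in the Foxp3 contrast at 0.052 and 0.06. Over the arrays left out these ranged from -0.82 to 0.477 and from -0.589 to 0.06. Serpinf1 in the Foxp3 contrast was at -0.07 with normexp, -0.183 with a floor of 100 RU, -0.151 with the slide, -0.152 without Tnaive of d25, and -0.047 without TFR of d25 (-0.152 to 0.549 over the arrays left out). Without TFR of d12, Serpinf1 was at 0.125 (-0.857 to 0.125) and Chil5 at -0.1 (-0.1 to 1.616) in TFR versus TFH cells. Treml2 in Treg versus Tnaive cells was at 0.103 without Treg of d12 and 0.041 without Tnaive of d25 (-0.224 to 0.103). Between the days, Serpinf1 was at 0.01 with a floor of 100 RU and D430019H16Rik at -0.112 without TFR of either day (-0.112 to 0.252). The mean over all probes brought Tmem108 to -1.453 and -1.488, Chil5 to -2.133 and -2.257, and Serpinf1 to 4.578 and 4.048 in TFH versus Tnaive and TFR versus Treg cells. In Tnaive cells, levels at the floor limit the fold of D430019H16Rik, and a level not well above background at d25 limits that of Serpinf1.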
